A study of Mus musculus with 6 samples.

Results

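The oncofetal genes examined here encode the chromatin proteins Hmga1 and Hmga2, the RNA-binding proteins Lin28a, Lin28b, Igf2bp1, Igf2bp2 and Igf2bp3, and the long non-coding RNA H19. Every array probe set whose annotation gave one of these symbols, and no other, was taken. This found 17 of 45037 non-control probe sets, for 5 of the 8 genes. Hmga2 had 4 probe sets, Igf2bp1 4, Igf2bp3 6, Lin28a 2 and Lin28b 1. H19 shares its only annotated probe set with Mir675, a microRNA made from it, so that probe set fell outside the rule. Hmga1 and Igf2bp2 were not analysed here.

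The RNA came from mouse breast cancer cells separated by sorting on surface CD24, a glycoprotein, and CD29, the integrin beta-1 chain. Of the 6 Affymetrix Mouse430_2 arrays, 3 were from cells positive for both proteins (CD24+CD29+) and 3 from cells negative for both (CD24-CD29-). Per the labels, both groups grew in medium with fetal bovine serum, and the cells of both are named as breast cancer stem cells. The labels give no cell line, strain, animal age or treatment, and nothing used here says whether the sample sets came from separate cultures or sorts. The p-values therefore set each difference against a spread within groups that may be technical only.

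These genes are named oncofetal because they are active in the embryo, are mostly silenced in adult tissue and return in some tumours. Hmga2 binds the minor groove of AT-rich DNA through AT-hook motifs and bends chromatin. Lin28a and Lin28b bind the precursors of the let-7 microRNAs and block their maturation, and mature let-7 in turn represses Hmga2, Lin28b and Igf2bp RNAs. The Igf2bp proteins bind messenger RNAs, among them that of Igf2, and affect their stability, transport and translation. These genes are commonly studied in mammary tumours in connection with self-renewal and invasion.

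Most let-7 family members share a seed, bases 2 to 8 of the mature strand, which pairs with target RNAs. Several members are shown because these microRNAs link Lin28 to Hmga2 and Igf2bp, with the seed, the stretch that pairs with target RNAs, in capitals. The sequences are those of RefSeq (GRCm38.p6).
mmu-let-7a-5p: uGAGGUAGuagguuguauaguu
mmu-let-7d-5p: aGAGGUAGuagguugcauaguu
mmu-let-7g-5p: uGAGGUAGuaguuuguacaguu
mmu-miR-98-5p: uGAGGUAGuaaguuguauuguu
They lie at chr13:48538239-48538260 (minus strand), chr13:48536078-48536099 (minus strand), chr9:106178846-106178867 (plus strand) and chrX:151913229-151913250 (plus strand). The family was taken by name, with miR-98 and miR-202 included. The seed GAGGUAG was carried by 10 of these 12 mature names and by 11 of all 1679 mature names, so not every name with this seed is among the 12. In mmu-let-7j (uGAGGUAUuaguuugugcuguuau) and mmu-miR-202-3p (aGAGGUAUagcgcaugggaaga) the seed was GAGGUAU. The level of mature let-7 itself was not analysed here.

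Values are RMA values on the log2 scale as deposited, and a difference is the CD24+CD29+ mean less the CD24-CD29- mean. It passed where limma's p-value, adjusted by Benjamini-Hochberg over all 45037 probe sets, was under 0.05. Of the 17 probe sets, 10 were higher in CD24+CD29+ cells, 1 was lower and 6 did not pass. Over all probe sets 29.2% were higher and 34.8% lower. The 3 probe sets that passed with at least a 2-fold rise were all of Hmga2, where the share over all probe sets was 2.29%. The groups did not overlap for 9 probe sets that were higher and 1 that was lower, against 31.1% and 37.1% over all probe sets.

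**Figure D1:**
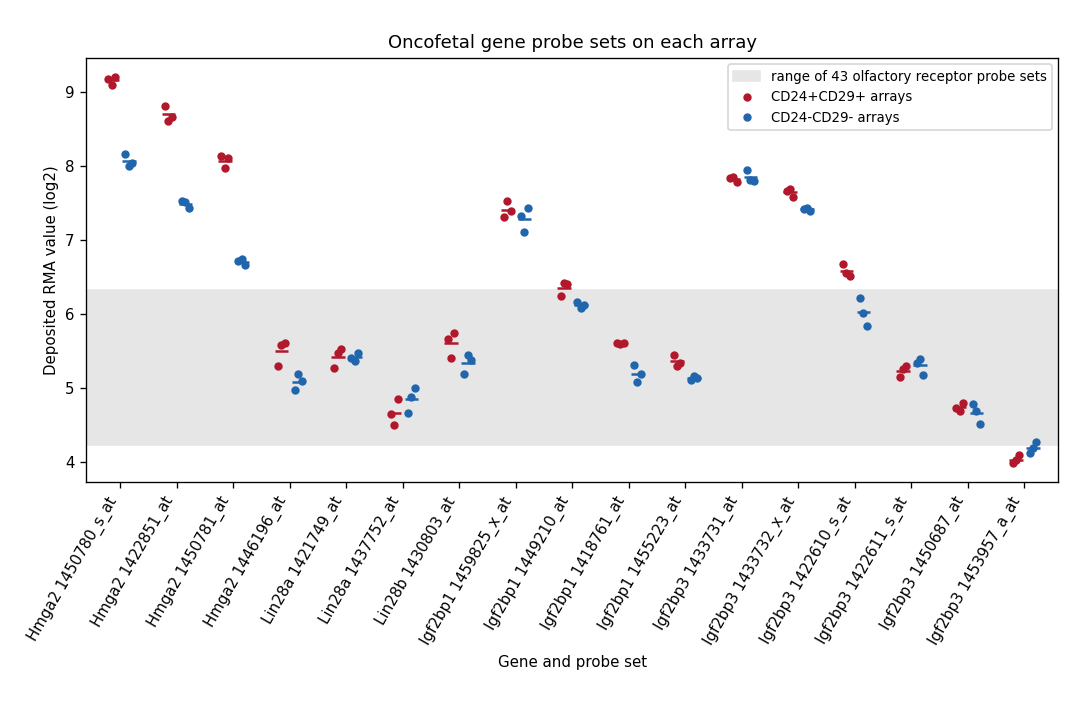
Deposited log2 values (vertical axis) of the 17 probe sets on each of the 6 arrays, with a short line at each group's mean; the grey band is the range of mean values of 43 olfactory receptor probe sets, 4.23 to 6.32. The 3 brightest Hmga2 probe sets show separate groups of points, with CD24+CD29+ arrays above CD24-CD29- arrays.

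Hmga2 RNA was more than 2-fold higher in CD24+CD29+ cells on 3 of its 4 probe sets. On the brightest, 1450780_s_at, the CD24+CD29+ arrays stood at 9.18, 9.10 and 9.21, and the CD24-CD29- arrays at 8.16, 8.01 and 8.04. All 3 CD24+CD29+ arrays lay about 1 log2 unit above the others, and the groups did not overlap. The difference was 1.09 (SE 0.06, 2.13-fold, limma adjusted p = 1.8e-06). After quantile normalization it was 0.89 and after cyclic loess 0.88, under 2-fold, and it still passed. It was higher than the difference of 98.4% of all probe sets, and over 18193 genes, each represented by 1 probe set, Hmga2 ranked 405 by rise.

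A second Hmga2 probe set, 1422851_at, read 8.82, 8.61 and 8.67 in CD24+CD29+ arrays and 7.53, 7.51 and 7.43 in CD24-CD29- arrays. Its difference was 1.21 (SE 0.07, 2.31-fold, limma adjusted p = 1.6e-06). The third, 1450781_at, read 8.14, 7.97 and 8.11 against 6.72, 6.75 and 6.66, the widest separation of the 17 probe sets. Here the difference was 1.37 (SE 0.06, 2.58-fold, limma adjusted p = 6.6e-07). All 3 were designed on the same Hmga2 sequence record, so they are not independent support. Whether they read the same transcripts was not tested.

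The fourth Hmga2 probe set, 1446196_at, was designed on a different record, an expressed sequence tag, and was dim. It read 5.30, 5.58 and 5.60 in CD24+CD29+ arrays and 4.97, 5.18 and 5.09 in CD24-CD29- arrays. The groups stood apart by a narrow margin, and the difference was 0.41 (SE 0.09, 1.33-fold, limma adjusted p = 0.0037). The gap between probe sets 1450781_at and 1446196_at was 2.39 to 2.84 in CD24+CD29+ arrays and 1.56 to 1.75 in CD24-CD29- arrays. The changes read by these 2 probe sets differed by 0.95, and those read by 1450781_at and 1450780_s_at by 0.27. These pairs set the probe set of largest difference against the dimmest and the brightest of the gene, so their gaps are a description with no test.

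The annotation also names a pseudogene of Hmga2, Hmga2-ps1, with 1 probe set, singled out after its values were seen. Its arrays read 6.70, 6.77 and 6.76 in CD24+CD29+ cells and 5.63, 5.71 and 5.84 in CD24-CD29- cells. The difference was 1.02 (SE 0.06, 2.03-fold, limma adjusted p = 3.2e-06), close in size to that of Hmga2. A suffix of _s_at marks a probe set that can read more than 1 related transcript, and how much RNA of the gene and of the pseudogene each probe set read was not tested.

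The Hmga2 promoter is shown because Hmga2 had the largest difference of the 5 genes. The 250 bases before the annotated start (RefSeq, GRCm38.p6, chr10:120476470-120476719, minus strand) are given with the GC box in capitals.
Hmga2 promoter: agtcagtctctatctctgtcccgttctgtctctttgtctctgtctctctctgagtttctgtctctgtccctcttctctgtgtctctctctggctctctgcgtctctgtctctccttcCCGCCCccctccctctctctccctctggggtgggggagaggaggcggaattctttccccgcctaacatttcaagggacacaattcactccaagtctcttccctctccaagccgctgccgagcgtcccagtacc
C and T made up 70.8% of this strand, more than in 99.6% of 32851 promoter windows of the same length, whose median was 50%. The letters GGGCGG, searched on both strands, occurred 1 time in it, and they occurred in 32.7% of all windows. The E-box letters CACGTG were not in it and were in 6.02% of all windows. The letters TATAAA were not in it either, and 12.4% of all windows held them. The same was true of CCAAT, held by 33.85% of all windows. Of the 5 measured genes, 4 had a window in the table. Those of Lin28b and Igf2bp3 each held CACGTG 1 time and CCAAT 1 time, and that of Lin28a held none of the 4 motifs. A match of letters is a description of the sequence and does not show that a factor binds there.

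Lin28a, the form best known from embryonic stem cells, did not pass on either probe set. On 1421749_at the CD24+CD29+ arrays read 5.27, 5.47 and 5.52 and the CD24-CD29- arrays 5.40, 5.36 and 5.47. The points were mixed, and the difference was 0.0081, with a 95% interval of -0.16 to 0.17. On 1437752_at they read 4.64, 4.50 and 4.85 against 4.66, 4.88 and 5.00. These also overlapped, with a difference of -0.19 and an interval of -0.43 to 0.06. Leaving out CD24+CD29+ replicate 3 or CD24-CD29- replicate 1 brought this second probe set past the threshold as lower, at -0.28 in each case (limma adjusted p = 0.0495 and 0.0456).

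Lin28b, the paralog that also blocks let-7 maturation and is reported in many tumours, had 1 probe set, 1430803_at. It read 5.66, 5.41 and 5.74 in CD24+CD29+ cells and 5.18, 5.45 and 5.37 in CD24-CD29- cells. The groups overlapped, because CD24+CD29+ replicate 2 lay below CD24-CD29- replicate 2. The difference of 0.27 (SE 0.10, 1.21-fold) passed by a narrow margin (limma adjusted p = 0.038). It did not pass without CD24+CD29+ replicate 1 (limma adjusted p = 0.104), CD24+CD29+ replicate 3 (0.130), CD24-CD29- replicate 1 (0.121) or CD24-CD29- replicate 3 (0.0583).

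Both Lin28 genes were dim on these arrays. As a reference for genes that a mammary cell is not known to use, the 43 olfactory receptor probe sets had mean values of 4.23 to 6.32, with a median of 5.38. Of these, 20 were brighter than the brighter Lin28a probe set and 17 were brighter than that of Lin28b. Probe sets differ in how strongly they bind, so this sets no detection limit and ranks no gene by its RNA. The values came with no detection calls.

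Igf2bp1, a fetal RNA-binding protein that stabilises target messenger RNAs such as that of Myc, was slightly higher in CD24+CD29+ cells on 3 of 4 probe sets. On 1449210_at the CD24+CD29+ arrays read 6.24, 6.42 and 6.41 and the CD24-CD29- arrays 6.16, 6.08 and 6.12. Each CD24+CD29+ array was above each CD24-CD29- array, and the difference was 0.24 (SE 0.06, 1.18-fold, limma adjusted p = 0.011). Probe set 1418761_at, designed on the same record, read 5.61, 5.59 and 5.60 against 5.31, 5.08 and 5.19, the largest difference of the 4 at 0.41 (SE 0.06, 1.33-fold, limma adjusted p = 0.00063). The groups were again separate.

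Igf2bp1 probe set 1455223_at read 5.44, 5.29 and 5.34 against 5.10, 5.16 and 5.13, a difference of 0.23 (limma adjusted p = 0.0074). The brightest, 1459825_x_at, read 7.31, 7.53 and 7.40 against 7.33, 7.11 and 7.44. Its groups overlapped, and the difference of 0.12 did not pass, with a 95% interval of -0.09 to 0.33. The suffix _x_at marks probe sets that can cross-hybridise to other transcripts. For Igf2bp1 as a gene, therefore, the call depends on the probe set taken: 0.24 on the main one, and 0.12 with no call (limma adjusted p = 0.27) where _x_at probe sets were allowed. Of the olfactory receptor probe sets, 3, 20 and 24 were brighter than the Igf2bp1 probe sets that passed, in the order given.

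Igf2bp3, a related RNA-binding protein often used as a tumour marker, gave no common direction over its 6 probe sets: 2 were higher, 1 was lower and 3 did not pass. The largest difference was on 1422610_s_at, with 6.68, 6.55 and 6.51 in CD24+CD29+ cells and 6.22, 6.01 and 5.84 in CD24-CD29- cells. The groups were separate, although the CD24-CD29- arrays spread over 0.38 log2 units. The difference was 0.56 (SE 0.10, 1.47-fold, limma adjusted p = 0.00099). The other probe sets from the same record did not pass: 1422611_s_at had a difference of -0.07 and 1450687_at one of 0.08, with 95% intervals of -0.23 to 0.10 and -0.09 to 0.24.

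The brightest Igf2bp3 probe set, 1433731_at, read 7.84, 7.85 and 7.78 in CD24+CD29+ arrays and 7.95, 7.81 and 7.80 in CD24-CD29- arrays. The groups overlapped, and the difference of -0.03 did not pass. After quantile normalization and after cyclic loess it did pass as lower, at -0.22 in both cases (limma adjusted p = 0.0086 and 0.0084). Its partner from the same record, 1433732_x_at, read 7.66, 7.69 and 7.59 against 7.42, 7.44 and 7.40. That was a separate pair of groups with a difference of 0.23 (limma adjusted p = 0.0044), and this call was lost after quantile normalization (0.05) and cyclic loess (0.07).

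The dimmest Igf2bp3 probe set, 1453957_a_at, was the only one of the 17 called lower. It read 3.98, 4.02 and 4.09 in CD24+CD29+ arrays and 4.11, 4.18 and 4.27 in CD24-CD29- arrays. Its mean over the 6 arrays, 4.11, was below the lowest mean of the 43 olfactory receptor probe sets, 4.23. The difference was -0.16 (limma adjusted p = 0.044). The call was lost when any of CD24+CD29+ replicates 1 and 2 and CD24-CD29- replicates 2 and 3 was left out, and under quantile normalization, cyclic loess, median centring and eBayes with a trend. The gap between 1422610_s_at and 1433731_at was -1.31 to -1.15 in CD24+CD29+ arrays and -1.96 to -1.73 in CD24-CD29- arrays. These probe sets, the one of largest difference and the brightest, read changes that differed by 0.59, again a description with no test. Against the dimmest, 1453957_a_at, the change on 1422610_s_at differed by 0.72.

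**Figure D2:**
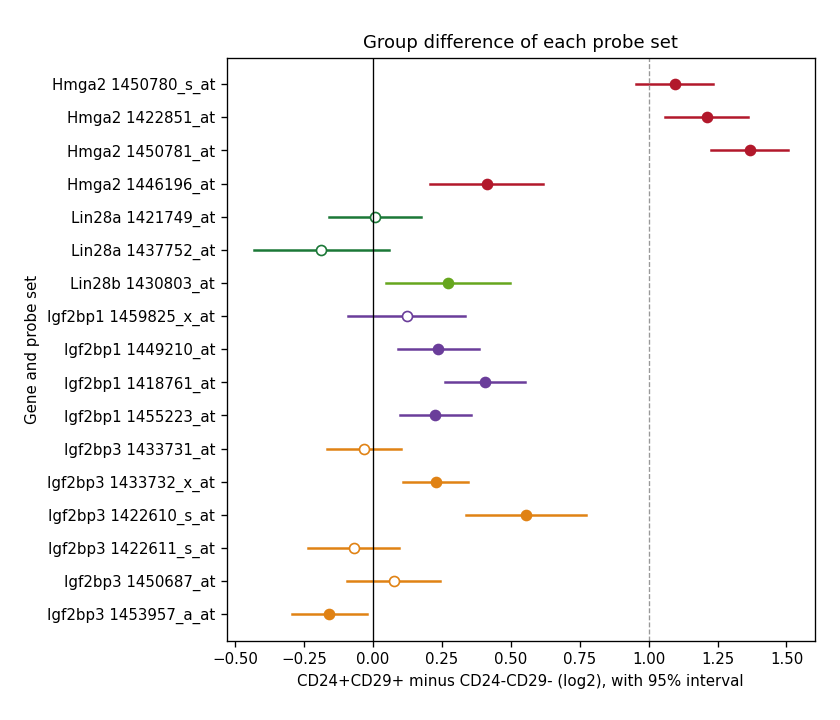
Log2 difference of each probe set, CD24+CD29+ minus CD24-CD29- (horizontal axis), with its 95% interval from limma; filled points passed the adjusted threshold, and the dashed line marks 2-fold. The Hmga2 probe sets at 1.09, 1.21 and 1.37 lie to the right of the dashed line, and every other point lies between -0.19 and 0.56.

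The share of probe sets called higher varied with their level. Between 5 and 6 on the log2 scale, 11.8% of 13494 probe sets were higher and 47.1% lower, with a median difference of -0.17. Between 8 and 9, 54.4% of 4211 were higher and 20.6% lower, with a median of 0.22. The olfactory receptor probe sets had a median difference of -0.32, with 1 higher and 32 lower. The 6 oncofetal probe sets with a mean level between 5 and 6 had differences of -0.07 to 0.41, and 4 of them were called higher: Lin28b, the dim Hmga2 probe set and a pair for Igf2bp1. At the levels of the brighter Hmga2 probe sets, a rise of at least 2-fold was found for 5.06% (7 to 8) and 5.84% (8 to 9) of all probe sets.

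**Figure D3:**
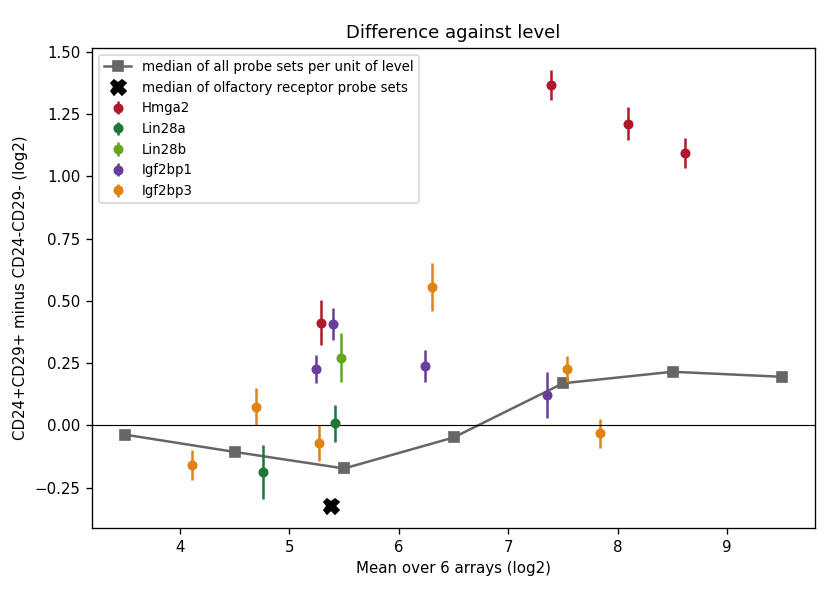
Difference of each probe set (vertical axis, log2, with the SE of the fit) against its mean over the 6 arrays (horizontal axis, log2); grey squares are medians of all probe sets per unit of level, and the cross is the median of the olfactory receptor probe sets. The medians run from -0.17 at 5 to 6 to 0.22 at 8 to 9, and 3 Hmga2 probe sets lie above 1.

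All directions are those of the values as deposited. The poly-A controls, foreign RNAs that are added to a sample before labelling, had a mean that was 0.97 higher in CD24-CD29- than in CD24+CD29+ arrays. Scaling each array to its own mean of these controls, called poly-A scaling here, raised the median difference of all probe sets from -0.05 to 0.92 and put all 17 probe sets past the threshold as higher, with Hmga2 at 1.39 to 2.34. Relative to the shifted median, the order of the probe sets was as before.

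The next question was whether genes that work with these proteins differed. They were taken 1 probe set per gene, adjusted over 18193 genes, of which 34.4% were higher and 36.5% lower, and the median difference was -0.04. At least 2-fold, 3.01% were higher and 1.66% lower. At gene level Hmga2, Igf2bp1 and Lin28b were higher, and Lin28a and Igf2bp3 did not pass. Of 19 measured genes of let-7 processing and decay, 11 were higher and 5 were lower, and 3 did not pass. Their median difference was 0.15 at a median level of 9.45. Among all 2239 genes with a mean of 9 to 10, 57.7% were higher and 22.2% lower, with a median of 0.21, so these counts are near those of genes of the same level. Xpo5, which exports microRNA precursors from the nucleus, was higher at 9.38 ± 0.08 against 8.24 ± 0.08 (SD, n = 3; difference 1.14, 2.21-fold), and the Argonaute gene Ago3 by 1.08, with 1 of its 5 probe sets called the other way. Drosha, the nuclease that makes the precursors, was lower at -0.45, with 1 of 3 probe sets called the other way. Of the uridylases that Lin28 recruits to let-7 precursors, Tut7 was lower at -0.37, and Tut4, outside the naming rule, was higher at 0.42. The falls of Drosha and Tut7 turned to rises under poly-A scaling.

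Of 27 let-7 targets outside the oncofetal genes, 15 were higher and 9 were lower, and 3 did not pass. Their median difference was 0.25 and their median level 9.14. The share of rises is again near the 57.7% of genes at 9 to 10. The share of falls, 9 of 27, is above the 22.2% of those genes. The cyclin gene Ccnd2 was higher by 1.35 (12.02 ± 0.02 against 10.66 ± 0.04, SD, n = 3) and the replication helicase-nuclease gene Dna2 by 1.22, with 1 of 3 probe sets called the other way. Irs2, an adaptor of insulin signalling, was lower at -1.0, which no longer passed under poly-A scaling (-0.03). E2f5, a cell cycle repressor, was lower at -0.42 on the probe set that represents it, whereas its other 2 probe sets were called higher. Trim71, itself a let-7 target of the embryo, did not pass at -0.07.

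Of 18 target RNAs of the Igf2bp proteins, 11 were higher and 3 were lower, and 4 did not pass. Their median difference was 0.36 at a median level of 9.73, and 1 of the 11 is Hmga2 itself. These counts are near the 57.7% higher and 22.2% lower of genes at 9 to 10, and averaging the probe sets of each gene made 5 lower. The prostaglandin synthase gene Ptgs2 was higher by 1.30 (11.85 ± 0.05 against 10.55 ± 0.09, SD, n = 3). Lamb2, a laminin chain, and the kinase gene Mapk4 were lower at -0.80 and -0.46, falls that turned to rises under poly-A scaling. Of 13 partners in the Igf2bp RNA-protein complex, 6 were higher, 2 were lower and 5 did not pass (median 0.15, level 11.3), with no gene past 2-fold. Above a level of 10, 51.3% of all genes were higher and 27.2% lower. The lower count was 1 when any of the 6 arrays was left out. The RNA-binding protein genes Elavl1 and Syncrip were higher by 0.48 and 0.47, Elavl1 with 1 of 6 probe sets called the other way. Ilf2 and Ddx3x were lower at -0.76 and -0.11, and both turned positive under poly-A scaling. The fall of Ddx3x, which 1 of its 3 probe sets also opposed, no longer passed after quantile normalization, cyclic loess or median centring.

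Imprinted genes are those described as expressed from 1 parental copy, like H19, and the use of parental copies was not analysed here. Of 20 imprinted growth genes, 8 were higher, 7 were lower and 5 did not pass. The count of 7 was 4 without CD24+CD29+ replicate 1 or 3, 4 after quantile normalization and cyclic loess and 3 after median centring, with 8 higher in each case. Their median difference was 0.0079 at a median level of 7.06, close to the edge between 2 level ranges. In the range from 7 to 8, 49.6% of genes were higher and 25.5% lower, with a median of 0.16. In the range from 6 to 7 these shares were 28% and 45.8%, with a median of -0.13. The median difference of the imprinted list lies between those of the 2 ranges. The growth factor receptor adaptor gene Grb10 was higher by 1.39 (8.91 ± 0.06 against 7.52 ± 0.12, SD, n = 3), with 1 of 3 probe sets called the other way. The proteoglycan gene Dcn, which is also among the fibroblast markers below, was higher by 1.15. The sarcoglycan gene Sgce was lower at -2.11 (5.43 ± 0.08 against 7.54 ± 0.12, SD, n = 3), and it stayed lower under poly-A scaling, at -1.14. Cdkn1c, a cyclin-dependent kinase inhibitor, was lower at -0.47 and turned positive under that scaling.

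Genes grouped with the oncofetal proteins by the HMG name or by an RNA-binding domain showed no 2-fold difference. Of 11 measured genes of other HMG proteins, 6 were higher, 4 were lower and 1 did not pass (median 0.23). Hmgb2 and Hmgb3, DNA-bending proteins with HMG boxes, were higher by 0.81 and 0.72, Hmgb2 with 1 of 3 probe sets called the other way. The nucleosome-binding protein gene Hmgn5 and the HMG box factor gene Tox were lower at -0.65 and -0.67, and both turned positive under poly-A scaling. A list of 17 genes was drawn up for cold shock and KH domains, RNA-binding folds of Lin28 and Igf2bp. Of these, 11 were higher, 4 were lower and 2 did not pass (median 0.19). The 17 include Zcchc3, higher by 0.20, and Cnbp, which did not pass, and neither has these domains. The count of 11 was 7 without CD24+CD29+ replicate 1 or CD24-CD29- replicate 2 and 6 when the probe sets of each gene were averaged, and the median was 0.079 after quantile normalization and 0.069 after cyclic loess. The median levels of these lists, 9.45 and 9.12, lie in the range where 57.7% of genes were higher. Fubp1 and Khdrbs1 were higher by 0.46 and 0.45, with 1 of 4 and 3 of 7 probe sets called the other way. Hnrnpk and Pcbp3 were lower at -0.53 and -0.46, or positive under that scaling.

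The genes whose profile over the 6 arrays was most like that of Hmga2 were Prss12, Matn4 and Pwwp3a. Likeness was the Euclidean distance between mean-centred log2 profiles, which was 0.05, 0.08 and 0.08. Their differences were 1.08, 1.14 and 1.15. With 6 arrays in 2 groups the distance mostly measures the size of the group difference, and 1286 genes lay within 0.5 of Hmga2.

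**Figure D4:**
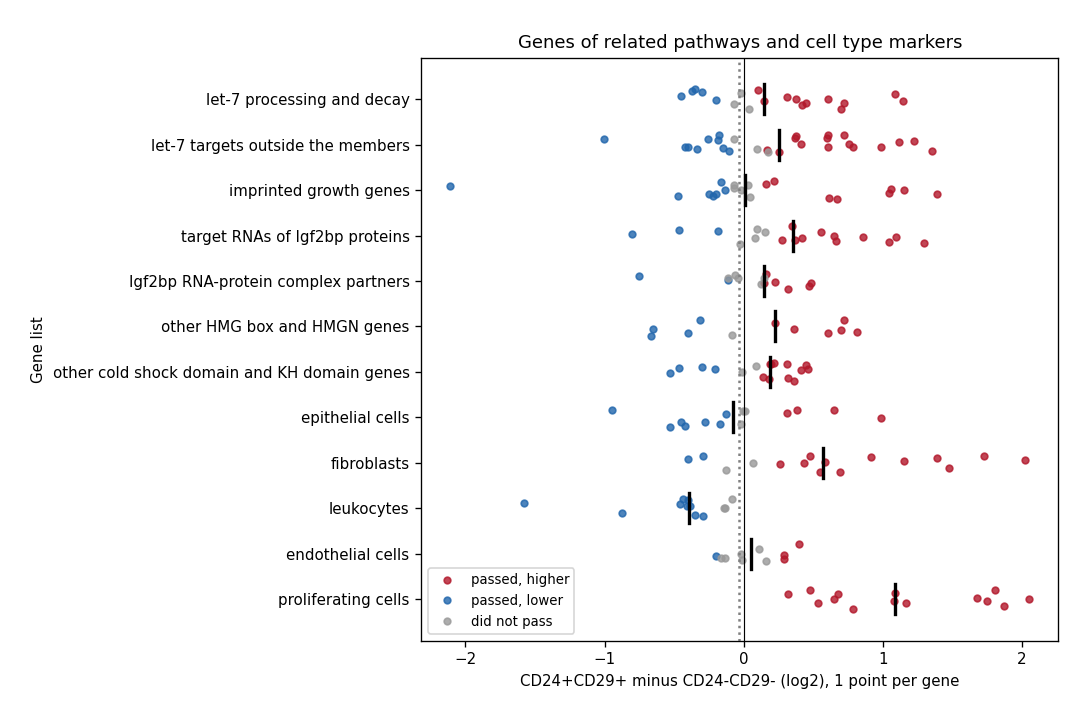
Log2 differences, CD24+CD29+ minus CD24-CD29- (horizontal axis), of the genes of each list (rows), 1 point per gene; black bars are list medians and the dotted line is the median of all genes, -0.04. Proliferation genes have the highest median, 1.08, and leukocyte markers the lowest, -0.40.

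Markers of cell state and of other cell types are given beside these results. Epithelial markers were bright on all arrays, with a list mean of 11.3 to 11.4 in CD24+CD29+ and 11.4 in CD24-CD29- arrays. Of 14, 4 were higher, 7 were lower and 3 did not pass. Their median level was 11.7, and above 10, 51.3% of all genes were higher and 27.2% lower. All 14 measured proliferation genes were higher, with a median of 1.08, and their mean was 10.0 to 10.1 in CD24+CD29+ and 8.87 to 8.95 in CD24-CD29- arrays. The median level of these genes was 9.50, and 57.7% of all genes at 9 to 10 were higher. Of 16 fibroblast markers, 12 were higher, 2 were lower and 2 did not pass (median 0.57; list mean 8.25 to 8.27 against 7.57 to 7.59), led by Col1a2 at 2.02. At their median level, 7.46, 49.6% of all genes were higher and 25.5% lower. Of 12 leukocyte markers, 9 were lower and 3 did not pass (median -0.40, or 0.58 by poly-A scaling; list mean 5.83 to 5.91 against 6.27 to 6.39), while the pan-leukocyte gene Ptprc did not pass at -0.09. These markers were dim, with a median level of 6.10: 56.6% of all genes at 5 to 6 and 45.8% at 6 to 7 were lower, as were 32 of the 43 olfactory receptor probe sets, with a median of -0.32. Of 10 endothelial markers, 3 were higher, 1 was lower and 6 did not pass. RMA gives no value of 0, so no marker can be called absent. The part of these markers in the rise of Hmga2 was not tested, and in sorted cell pools fewer cells of a type and less RNA per cell cannot be told apart. Of the sorted proteins' genes, Itgb1 was higher by 0.87 (mean 10.94 against 10.06) and Cd24a by 0.21 (13.00 against 12.79). RNA of both was thus bright in the cells sorted as negative too.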

How the data were processed

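The authors deposited log2 values of 45101 probe sets, made with RMA and Partek per the submitters' processing notes, with versions, settings and order not given in the sources used here. Probe sets were named from the platform annotation, which can be old: 34945 had 1 symbol, 932 several and 9160 none, and 64 controls were left out. Differences between the groups were fitted by limma 3.58.1 (lmFit, eBayes, no block; R 4.3.3) over 45037 probe sets or over 18193 genes. A gene was represented by its brightest probe set, not ending in _x_at where it had another. Arrays correlated at r = 0.997 to 0.998 within and 0.974 to 0.979 between groups, across probe sets, which are not independent replicates. Precision is limited by the number of arrays.

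The members and lists were chosen with earlier results of these data known. Named by rule were every member, the 2 largest rises and falls among passing genes of each pathway list, and the 3 genes nearest in profile to a member past 2-fold. On simulated data with this spread, 50 of 45037 probe sets were changed per size. Of changes of 0.25, 8% were recovered, of 0.5 60%, of 1 96% and of 2 100%, with 2 false of 134 calls. Far more passed in the data themselves, 29.2% higher and 34.8% lower, which makes the adjusted threshold less strict there. These recovery shares therefore do not hold for the calls given here. Alternatives were other normalizations, scaling to 27 poly-A control probe sets, filters on dim rows, another spread model, a replicate block, other gene representations and leaving out each array. Some list genes were not analysed here.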

Additional observations from a re-analysis of the deposited data

How the results depend on the processing

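Over 14 other settings, the Hmga2 probe sets gave 55 values, all higher and past the threshold. The count of higher probe sets, 10, was 17 under scaling to the poly-A controls, with 12 at least 2-fold, and 6 without the dimmest 40%, where 8 of the 17 were tested. The lower count, 1, was 0 under median centring, scaling to the poly-A controls, either filter on dim rows (40% or 20%) and eBayes with a trend, and 0 to 2 when 1 array was left out. Signs turned, without a call, for Igf2bp1 1459825_x_at after quantile normalization (-0.030) and cyclic loess (-0.016), for Igf2bp3 1422611_s_at (0.075 and 0.071), and for Igf2bp3 1433731_at after median centring (0.023). Under scaling to the poly-A controls, Lin28a 1437752_at (0.79) and Igf2bp3 1433731_at (0.94), 1422611_s_at (0.90) and 1453957_a_at (0.82) turned positive and passed. With 1 array left out, Lin28a 1421749_at ran from -0.042 to 0.083 and Igf2bp3 1433731_at from -0.058 to 0.014. Averaging the probe sets of each gene put Lin28a at -0.090 and Igf2bp3 at 0.10, neither called. The cause was not tested where a shift common to all rows or fewer rows or arrays does not give it. Of 384 list counts, 325 stayed within 1.5 times the count given, and 21 of the 59 others were under scaling to the poly-A controls.

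Correlations of the deviations from the group mean were 0.20, -0.04 and 0.05 for same-numbered arrays and -0.22 to 0.18 for the other pairs. With 3 arrays per group this cannot show whether same-numbered arrays share a culture or sort. With the replicate block 10 probe sets were higher and 1 lower, as without it, and Hmga2 stayed at 1.09. At gene level Lin28b no longer passed (limma adjusted p = 0.059).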
